A study of Mus musculus with 6 samples.

Results

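The G1 cyclins, their kinases and the INK4 inhibitors were followed through 6 RNA-seq libraries of primary mouse keratinocytes with and without deletion of iASPP. The set is defined by gene name: the D-type cyclins *Ccnd1*, *Ccnd2* and *Ccnd3*, the E-type cyclins *Ccne1* and *Ccne2*, the kinases *Cdk2*, *Cdk4* and *Cdk6*, and the inhibitor genes *Cdkn2a* and *Cdkn2b*. These are 10 of the 55367 gene names in the count table. Keratinocytes were isolated from the skin of day 2 pups of a mixed C57BL/6 and 129/Sv background. Every culture, controls included, had the genotype *Ppp1r13l* flox/flox;Cre+ERT, in which a Cre recombinase fused to a modified estrogen receptor and expressed from the Rosa26 locus, and so not restricted to keratinocytes, removes a floxed exon of *Ppp1r13l*, the gene encoding iASPP. In each of 3 batches, 1 culture received tamoxifen at the medium change 24 h after plating (iASPP-KO) and 1 did not (iASPP-WT), and cells were kept for 4 days. The tamoxifen concentration is 1 mM in the sample labels and 1 μM in the study's methods. Because the control cultures received no tamoxifen, drug and deletion cannot be told apart. Whether a batch was 1 litter or several pooled pups is not given in the sources used here.

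In the textbook account of the G1 phase, mitogens raise D-type cyclins, which activate Cdk4 and Cdk6. These kinases begin to phosphorylate the retinoblastoma protein and so release E2F transcription factors. E2F in turn drives the E-type cyclins, which activate Cdk2 and complete the passage into S phase. The INK4 proteins p16INK4a (from *Cdkn2a*) and p15INK4b (from *Cdkn2b*) bind Cdk4 and Cdk6 and block their union with D-type cyclins. In the epidermis proliferation is confined to basal cells and hair follicles, and INK4 genes are known for their rise in aging and explanted cells.

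Libraries held 20202517 to 25157117 counts each, and expression is given as CPM, the counts of a gene per 1000000 counts of its library after TMM scaling, which is not corrected for gene length. In bulk RNA, fewer cells of a kind and less RNA per cell cannot be told apart. *Ppp1r13l* was at 14.3, 17.7 and 5.91 CPM in iASPP-KO cells (batches 1, 2 and 3) and at 32.7, 45.1 and 21.0 CPM in the matching iASPP-WT cultures, a log2 fold change of -1.45 (SE 0.18; adjusted p = 0.0030, from edgeR's quasi-likelihood F-test with a term for batch and Benjamini-Hochberg adjustment, as for all edgeR values that follow). Of 14916 genes that passed the filter on low counts, 2.17% were called higher and 1.95% lower in iASPP-KO cells at an adjusted p of 0.05, and the median log2 fold change of all of them was 0.01. All 10 keratinocyte markers examined were detected, with a summed level of 26789 to 30813 CPM, of which *Krt14* was the largest part. The differentiation keratins *Krt1* and *Krt10* were lowest in batch 3. *Krt1* was at 140 (KO) and 136 CPM (WT) there and at 365 to 1264 CPM in the other 4 libraries. *Krt10* was at 9.09 (KO) and 10.1 CPM (WT) there and at 21.8 to 134 CPM in the others. The 9 fibroblast markers summed to 632 CPM (KO) and 822 CPM (WT) in batch 3 and to 52.3 to 70.8 CPM in the other 4 libraries, so both batch 3 cultures stood apart, and the 7 melanocyte markers summed to 367 to 1126 CPM. Between the conditions 2 of the 9 fibroblast markers (*Col1a2* and *Col3a1*) and 1 of the 10 keratinocyte markers (*Krt10*) were called lower in iASPP-KO cells. Of 5 tested macrophage and leukocyte markers 1 (*Csf1r*) was called higher, and 0 of 7 melanocyte and 0 of 3 tested endothelial markers were called. The macrophage and leukocyte markers summed to 64.9 to 83.1 CPM in iASPP-KO and 43.6 to 65.2 CPM in iASPP-WT cultures, sums that hide opposite shifts in batch 3. *Lyz2* was at 59.1 (KO) and 49.6 CPM (WT) in batch 3 and at 1.11 to 4.81 CPM in the other 4 libraries. *Csf1r* (5.23 and 1.92 CPM, beside 9.09 to 28.8) and *Cd68* (10.9 and 8.95 CPM, beside 29.8 to 42.5) were lowest in batch 3. The part of these cells and marker shifts in the results was not tested. Calls and directions of members that change without batch 3 are given beside each gene, and changes in the lists as counts.

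*Ccne1* had significantly lower expression in iASPP-KO cells, and was the 1 gene of the set past the threshold. The other E-type cyclin, *Ccne2*, and their partner *Cdk2* were lower in iASPP-KO cells in all 3 batches without passing it. The D-type cyclins, *Cdk4*, *Cdk6* and *Cdkn2b* gave no call in either direction, and *Cdkn2a* was detected in a single iASPP-WT culture. Of the 9 members that passed the filter on low counts, 0 were called higher and 1 lower (11.1% of the 9, beside 1.95% of all genes tested). The median log2 fold change of these 9 was -0.07, close to the median of all genes.

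Promoter sequences are shown for *Ccne1*, the member that fell, for its kinase *Cdk2*, and for the INK4 genes, whose neighboring starts bear on how the *Cdkn2a* counts are read. They come from RefSeq on the GRCm38.p6 assembly, the build of the count table. Entries were found for 7 of the 10 members, with a pair of start sites each for *Ccnd3* and *Cdkn2a*, and none for *Ccnd1*, *Ccnd2* and *Ccne2*. Each window covered the 250 bases before a start site, and what is printed, 5′ to 3′ on the gene's strand, is its longest run outside every exon of the count table's annotation. Capitals mark E2F-type matches (TTTCCCGC, TTTGGCGC, TTTGCCGC or TTTCGCGC) and GC boxes (GGGCGG), on either strand. The stretches lie at chr7:38107535-38107740 for *Ccne1* and chr10:128705052-128705179 for *Cdk2*, both on the minus strand.
Ccne1: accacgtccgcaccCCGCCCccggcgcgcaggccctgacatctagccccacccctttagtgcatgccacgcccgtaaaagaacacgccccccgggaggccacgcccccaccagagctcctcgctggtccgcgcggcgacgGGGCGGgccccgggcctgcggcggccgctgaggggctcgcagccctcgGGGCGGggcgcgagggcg
Cdk2: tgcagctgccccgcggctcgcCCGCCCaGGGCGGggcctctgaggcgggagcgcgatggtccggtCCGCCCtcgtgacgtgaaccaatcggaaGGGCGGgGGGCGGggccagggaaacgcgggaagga

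The *Ccne1* window of 250 bases held 4 GC boxes, 3 of them in the stretch printed, and no E2F-type match. The *Cdk2* window held 5 GC boxes and 1 E2F-type match that began 140 bases before the start. That match is not in the stretch printed, since its bases belong to an exon of *Pmel*, a pigment cell gene on the opposite strand. Of 32851 RefSeq promoters of the same length, 1.86% held an E2F-type match and 32.7% a GC box. The *Cdk4* window, not printed, held 4 E-boxes of the letters CACGTG, and the *Cdk6* window held 1, beside 6.02% of promoters with any. No window of the 7 members with an entry held the AP-1 letters TGANTCA, which were found in 6.75% of promoters. *Ccnd1*, *Ccnd2* and *Ccne2* had no window to search. A match describes letters and is no evidence of a bound factor, and an absent match says only that these letters are not in the window.

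For the INK4 genes, all on the minus strand of chromosome 4, the stretches lie at chr4:89282193-89282442 for the start of the p16INK4a transcript, chr4:89294654-89294869 for that of the p19ARF transcript, and chr4:89311040-89311282 for *Cdkn2b*. The p16INK4a start lies within the first intron of the p19ARF transcript.
Cdkn2a (p16INK4a): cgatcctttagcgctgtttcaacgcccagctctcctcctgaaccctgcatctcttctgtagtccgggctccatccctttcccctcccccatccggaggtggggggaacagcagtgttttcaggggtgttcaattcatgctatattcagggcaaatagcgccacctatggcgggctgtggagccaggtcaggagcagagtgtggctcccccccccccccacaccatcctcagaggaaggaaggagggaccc
Cdkn2a (p19ARF): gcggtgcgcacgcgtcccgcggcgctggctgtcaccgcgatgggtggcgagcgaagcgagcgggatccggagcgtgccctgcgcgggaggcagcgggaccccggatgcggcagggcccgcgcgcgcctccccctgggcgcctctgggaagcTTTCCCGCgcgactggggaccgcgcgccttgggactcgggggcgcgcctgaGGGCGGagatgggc
Cdkn2b: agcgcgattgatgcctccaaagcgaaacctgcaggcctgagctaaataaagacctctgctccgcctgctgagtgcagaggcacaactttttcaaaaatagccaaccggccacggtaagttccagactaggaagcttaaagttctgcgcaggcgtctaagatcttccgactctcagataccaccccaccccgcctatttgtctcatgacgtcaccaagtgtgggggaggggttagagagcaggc

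The p19ARF window held the other E2F-type match of the set, 99 bases before the start, and 2 GC boxes. The windows of p16INK4a and *Cdkn2b* held neither kind of match.

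Cyclin D1, encoded by *Ccnd1*, carries mitogen signals to Cdk4 and Cdk6. *Ccnd1* was at 199, 227 and 176 CPM in the iASPP-KO cultures of batches 1 to 3 and at 199, 211 and 199 CPM in the iASPP-WT cultures. The groups overlapped, with the highest and the lowest value both in iASPP-KO cultures. The log2 fold change was -0.02 (SE 0.11; 95% interval -0.27 to 0.23; edgeR adjusted p = 0.954), with 0.01, 0.11 and -0.18 within the batches. Without batch 3 it was 0.058 (edgeR adjusted p = 0.894). Over the 6 libraries the genes whose profiles of log2 CPM, each centered on its own mean, lay nearest to that of *Ccnd1* were *Rbm39* (root-mean-square distance 0.02 on the log2 scale) and *Ddx54* (0.03), beside a median distance of 0.39 over all tested genes.

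*Ccnd2*, which encodes cyclin D2, was at 200, 167 and 280 CPM in iASPP-KO and 289, 251 and 201 CPM in iASPP-WT cultures of batches 1 to 3. In batches 1 and 2 the iASPP-KO culture was the lower of the pair (log2 differences of -0.53 and -0.59), while in batch 3 it was the higher (0.47). Fitted over all batches the log2 fold change was -0.22 (SE 0.19, edgeR adjusted p = 0.647). Without batch 3, the batch with the high fibroblast markers, it was -0.56 (adjusted p = 2.2e-04, edgeR), so the absence of a call rests on that batch.

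*Ccnd3*, which encodes cyclin D3, the third D-type cyclin, was at 19.5, 14.9 and 16.1 CPM in iASPP-KO and 15.7, 13.9 and 14.9 CPM in iASPP-WT cultures. It was the 1 tested member that was higher in iASPP-KO cells in every batch (log2 differences of 0.31, 0.10 and 0.11), beside 19.5% of all tested genes, and the groups overlapped. The fitted log2 fold change was 0.17 (SE 0.18, edgeR adjusted p = 0.719). *Ccnd3* shares 3.64% of its windows of 42 bases, the read length, with a processed copy named Ccnd3-ps. That share was taken on its longest annotated transcript, which retains an intron, and was not measured on a fully spliced transcript.

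The kinase genes of the D-type cyclins gave no call. *Cdk4* was at 175, 163 and 264 CPM in iASPP-KO and 179, 176 and 165 CPM in iASPP-WT cultures. The 3 iASPP-WT cultures and the first 2 iASPP-KO cultures lay close together, and the iASPP-KO culture of batch 3 stood alone above them. The log2 fold change was 0.18 (SE 0.16, edgeR adjusted p = 0.651), and -0.073 without batch 3.

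*Cdk6*, the other kinase bound by D-type cyclins, was at 86.1, 76.7 and 73.8 CPM in iASPP-KO and 88.9, 85.4 and 75.0 CPM in iASPP-WT cultures. The iASPP-KO culture was marginally the lower in each batch, and the groups overlapped. Its log2 fold change was -0.07 (SE 0.11; 95% interval -0.33 to 0.18; edgeR adjusted p = 0.820).

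Cyclin E1, encoded by *Ccne1* (chr7:38097984-38107534, minus strand), activates Cdk2 late in G1. *Ccne1* was at 6.10, 9.02 and 6.42 CPM in the iASPP-KO cultures of batches 1 to 3, from 137, 201 and 151 counts, and at 16.3, 13.9 and 19.8 CPM in the iASPP-WT cultures, from 347, 339 and 444 counts. Every iASPP-KO culture lay below every iASPP-WT culture, which held for 5.46% of all tested genes. The mean was 7.18 ± 1.60 CPM in iASPP-KO and 16.6 ± 2.95 CPM in iASPP-WT cells (SD, n = 3 each), and the fit put *Ccne1* 2.33-fold higher in iASPP-WT cells (log2 fold change -1.22, SE 0.25, edgeR adjusted p = 0.0257). Within batches the log2 differences were -1.40, -0.62 and -1.61, the least of them in batch 2. Without batch 1 the log2 fold change was -1.12 and the call was lost (edgeR adjusted p = 0.0945), and over the omission of each batch in turn it ran from -1.51 to -1.01. The nearest profiles over the 6 libraries were those of *Gm34256* and *Olfr1423* (distances of 0.17 each, beside a median of 0.76), which had at most 29 counts in a library.

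*Ccne2*, which encodes cyclin E2, was at 13.4, 14.8 and 19.9 CPM in iASPP-KO and 23.8, 18.1 and 40.9 CPM in iASPP-WT cultures. The iASPP-KO culture was the lower in each batch (log2 differences of -0.82, -0.29 and -1.03), but the groups overlapped, since the iASPP-KO culture of batch 3 exceeded the iASPP-WT culture of batch 2. The log2 fold change was -0.72 (SE 0.19, edgeR adjusted p = 0.0688), and -0.56 without batch 3 (edgeR adjusted p = 0.107). In the fit over all batches DESeq2 placed it on the other side of the threshold (adjusted p = 0.0428).

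*Cdk2*, the kinase of the E-type cyclins, was at 45.1, 33.8 and 51.8 CPM in iASPP-KO and 62.9, 42.6 and 87.1 CPM in iASPP-WT cultures. Here too each iASPP-KO culture was below its partner (log2 differences of -0.48, -0.33 and -0.75), while the groups overlapped. The log2 fold change was -0.52 (SE 0.13, edgeR adjusted p = 0.0611), and DESeq2 again gave a value past the threshold (adjusted p = 0.0367). Without batch 3 the log2 fold change was -0.41 (edgeR adjusted p = 0.0835). *Ccne1*, *Ccne2*, *Cdk2* and *Cdk6* were thus the 4 of 9 tested members lower in every batch, beside 19.5% of all genes. At an unadjusted p of 0.05 the 3 lower members were *Ccne1*, *Ccne2* and *Cdk2*, or 3 of 9 beside 8.09% of all genes, and 0 were higher, beside 8.66%.

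**Figure D1:**
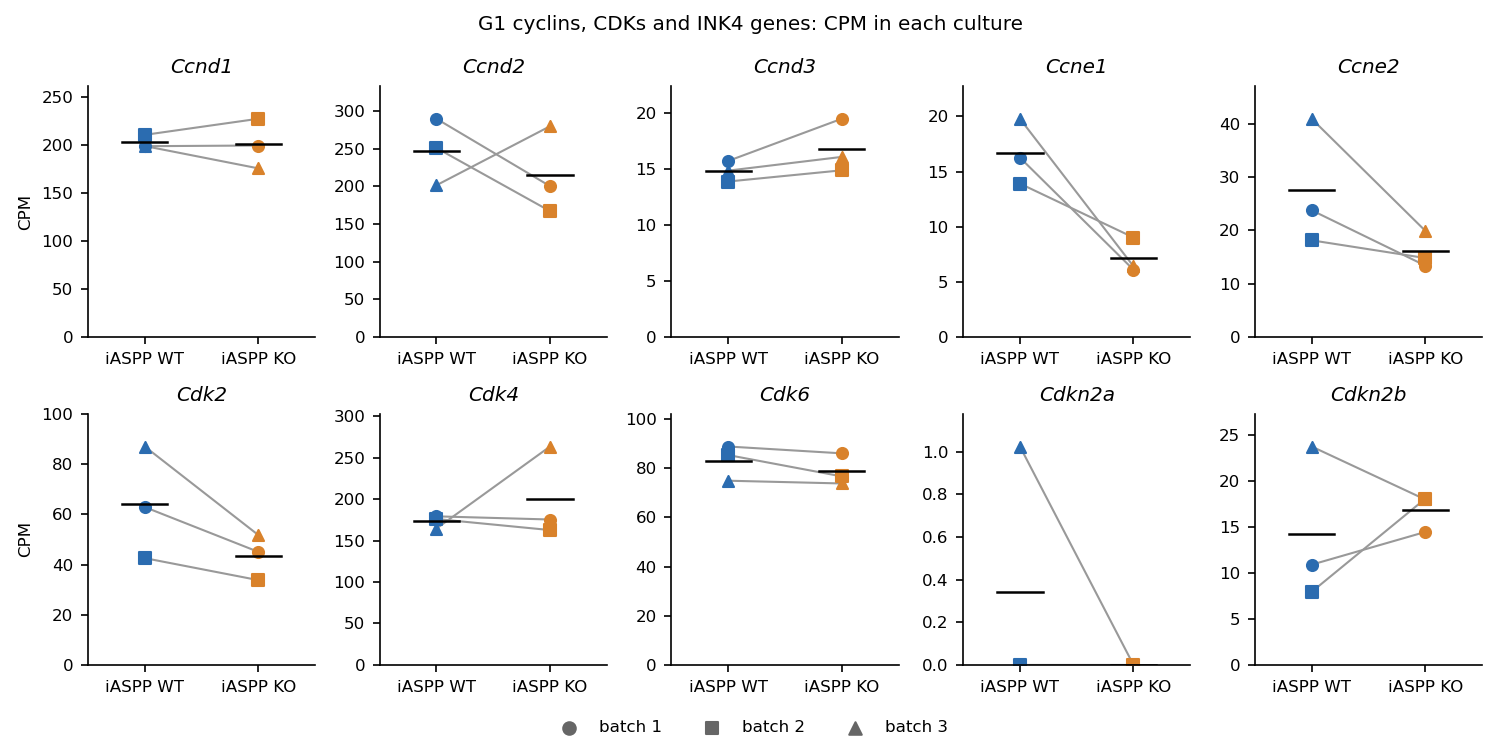
CPM of each of the 10 members (vertical axis, from 0, a scale for each gene) in the iASPP-WT (blue) and iASPP-KO (orange) cultures, with a marker shape for each batch, lines joining cultures of a batch and bars at the means of 3. *Ccne1* separates the groups (6.10 to 9.02 against 13.9 to 19.8 CPM), *Ccne2* and *Cdk2* slope down in every batch, and in *Ccnd1*, *Ccnd2*, *Cdk4* and *Cdkn2b* batch 3 slopes against batch 2.

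**Figure D2:**
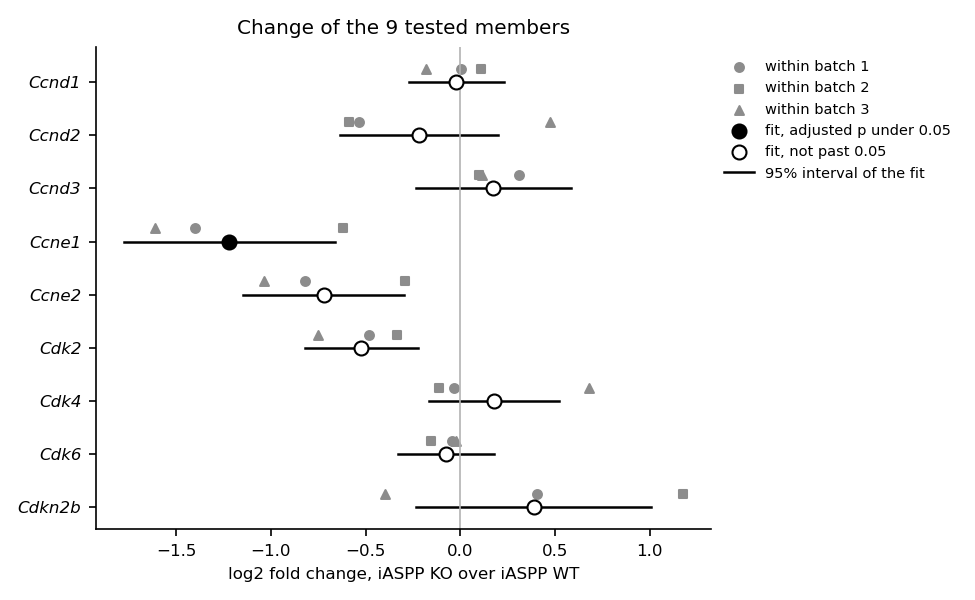
Log2 fold change, iASPP-KO over iASPP-WT, of the 9 tested members (circles, filled for *Ccne1*, the 1 gene past an adjusted p of 0.05), with 95% intervals of the fit (lines) and the 3 within-batch differences (gray markers). *Ccne1*, *Ccne2*, *Cdk2* and *Cdk6* have all 3 batches below 0, *Cdk6* by the least, and *Cdkn2b* runs from -0.40 in batch 3 to 1.18 in batch 2.

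The INK4 genes lie next to each other on chromosome 4. *Cdkn2b*, whose protein p15INK4b inhibits Cdk4 and Cdk6, was at 14.5, 18.1 and 18.01 CPM in iASPP-KO and 10.9, 7.96 and 23.8 CPM in iASPP-WT cultures. The highest value was that of the iASPP-WT culture of batch 3, which was also the library with the highest sum of fibroblast markers, and the other 2 iASPP-WT cultures lay below all iASPP-KO cultures. The log2 fold change was 0.39 (SE 0.28, edgeR adjusted p = 0.568), with 0.40, 1.18 and -0.40 within batches. Without batch 3 it was 0.79 and passed the threshold (adjusted p = 0.0255, edgeR), whereas without batch 2 it was close to 0.

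*Cdkn2a* encodes both p16INK4a and p19ARF, an inhibitor of Mdm2 that thereby stabilizes p53, in transcripts with different first exons and shared exons 2 and 3. Counts per gene name pool both transcripts. *Cdkn2a* had 0 counts in all 3 iASPP-KO cultures and in the iASPP-WT cultures of batches 1 and 2, and 23 counts (exact Poisson 95% interval 14.6 to 34.5, counting error only) in the iASPP-WT culture of batch 3. A floor of 3 counts was set for a count of 0, or 0.123 to 0.141 CPM in these libraries. With its 23 counts taken as they stand, the iASPP-WT culture of batch 3 (1.02 CPM) was 8.04-fold above the floor of its iASPP-KO partner. The exact Poisson 95% interval of a count of 0 is wider and reaches 3.69 counts. The lower Poisson limit of the iASPP-WT culture of batch 3 was 4.14-fold above the upper Poisson limit of that iASPP-KO culture. The iASPP-WT culture of batch 3 also had the highest sum of fibroblast markers (822 CPM), whose part in the *Cdkn2a* counts was not tested. The gene did not pass the filter on low counts, and a single library of 3 is no difference between conditions. In a fit without that filter its edgeR adjusted p was 0.940.

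Within 200 kb of the *Cdkn2a* to *Cdkn2b* span, 13 gene names were counted in all. *Mtap*, a methionine salvage enzyme gene often lost together with *Cdkn2a* in tumors, was at 23.3 to 32.4 CPM in all 6 libraries. Reads of this neighbor do not show whether *Cdkn2a* itself was intact or detectable, which was not tested. The iASPP-KO cultures had 23.3, 28.1 and 26.6 CPM of *Mtap* and the iASPP-WT cultures 28.6, 32.4 and 29.1 CPM, groups that did not overlap (log2 fold change -0.21, SE 0.15, edgeR adjusted p = 0.564). *Wincr1* and *Gm12606* were the other tested neighbors, with levels of 0.891 to 7.18 CPM and 1.08 to 4.80 CPM and no call. *Gm12602* reached at most 16 counts, and *Gm12607*, *Gm26490*, *Tgif2-ps1*, *Gm12609*, *Gm12610*, *Gm12608* and *Gm27580* had at most 2 counts in a library.

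Levels of different members can be set beside each other only per length, here as CPM per kilobase of the exons counted. In iASPP-WT cells the order of these levels was *Cdk4* (53.4 ± 2.38, SD, n = 3), *Ccnd1* (43.1 ± 1.43), *Ccnd2* (26.3 ± 4.69), *Cdk2* (10.3 ± 3.58), *Cdkn2b* (10.2 ± 6.05), *Ccne2* (7.89 ± 3.39), *Ccne1* (6.25 ± 1.11), *Cdk6* (5.94 ± 0.518), *Ccnd3* (1.69 ± 0.105) and *Cdkn2a* (0.291 ± 0.505). The ranges over the 3 iASPP-WT cultures did not overlap from *Cdk4* to *Ccnd1*, *Ccnd2* and *Cdk2*, nor from *Cdk6* to *Ccnd3* and *Cdkn2a*. Neighbors from *Cdk2* through *Cdkn2b*, *Ccne2* and *Ccne1* to *Cdk6* did not differ beyond their spread. In iASPP-KO cells *Ccne1* (2.697 ± 0.602) ranked below *Cdk6* (5.64 ± 0.458) and *Cdkn2b* (12.1 ± 1.49) above *Cdk2* (7.004 ± 1.46), with ranges that did not overlap in either pair. These ranges cover the spread between cultures only, and the levels depend on the length taken. *Ccnd3* was divided by 8775 counted bases, where its longest annotated transcript has 3858. For *Cdk2* the lengths are 6219 and 3264. The order was not repeated with other lengths, and the percentages between members below rest on counted exons too.

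**Figure D3:**
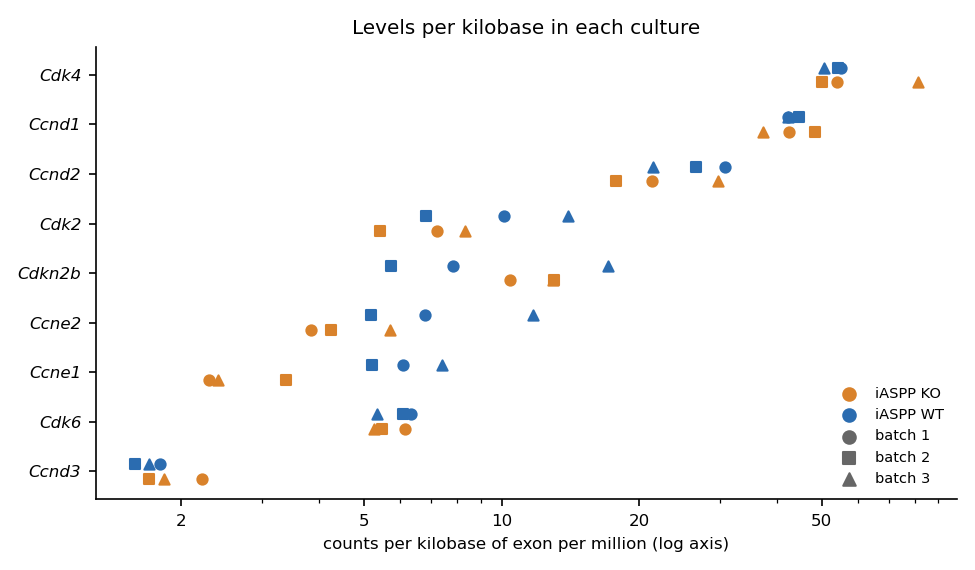
CPM per kilobase of counted exon (horizontal log axis) of 9 members in each iASPP-WT (blue) and iASPP-KO (orange) culture, with a marker shape for each batch. *Cdkn2a*, at 0 in 5 libraries, is left out. *Cdk4* and *Ccnd1* are the highest, *Ccnd3* is the lowest of the 9, and *Ccne1* is the 1 gene of the 9 whose groups do not overlap.

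Summed per kilobase, the E-type cyclins amounted to 9.31%, 11.3% and 11.8% of the D-type cyclins in the iASPP-KO cultures of batches 1 to 3 and to 17.3%, 14.3% and 29.3% in the iASPP-WT cultures. *Cdk2* amounted to 12.05%, 9.78% and 9.64% of *Cdk4* and *Cdk6* together in iASPP-KO and to 16.4%, 11.4% and 24.99% in iASPP-WT cultures. Both percentages were lower in iASPP-KO cells in every batch. In batch 3 both parts of the *Cdk2* percentage differed: per kilobase, *Cdk2* was at 8.33 in the iASPP-KO and 14.0 in the iASPP-WT culture. *Cdk4* and *Cdk6* together were at 86.4 and 56.0, with the lone high *Cdk4* value in the iASPP-KO culture. For the E-type cyclins the groups did not overlap, whereas for *Cdk2* the iASPP-WT culture of batch 2 lay below the iASPP-KO culture of batch 1. With 3 pairs an exact permutation test within batches cannot give a two-sided p below 0.25, so none was run.

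Within families, *Ccnd1* made up 56.5% to 64.7% of D-type cyclin transcripts in iASPP-WT and 54.2% to 71.3% in iASPP-KO cultures, and *Ccnd3* at most 3.38% in any culture. *Ccne1* made up 47.3%, 50.2% and 38.8% of E-type cyclins in the iASPP-WT cultures of batches 1 to 3 and 37.4%, 44.4% and 29.7% in the iASPP-KO cultures, lower in each batch. *Cdk4* was the main kinase, with 72.4% to 80.7% in iASPP-WT and 80.1% to 85.6% in iASPP-KO cultures. These shares depend on the length taken for each gene. With the longest annotated transcript in place of all counted exons, the mean of *Ccnd3* was 3.98% in place of 2.39% in iASPP-WT cells and 4.75% in place of 2.85% in iASPP-KO cells. Means of *Ccnd1* in iASPP-WT (60.8% to 56.0%), *Cdk2* in iASPP-KO (9.48% to 11.4%) and *Cdk6* in iASPP-WT cells (8.54% to 6.49%) also moved by more than the SD between cultures. The longest transcripts of *Ccnd3* and *Cdk2* are annotated as retaining an intron, so these lengths are not those of a coding mRNA.

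**Figure D4:**
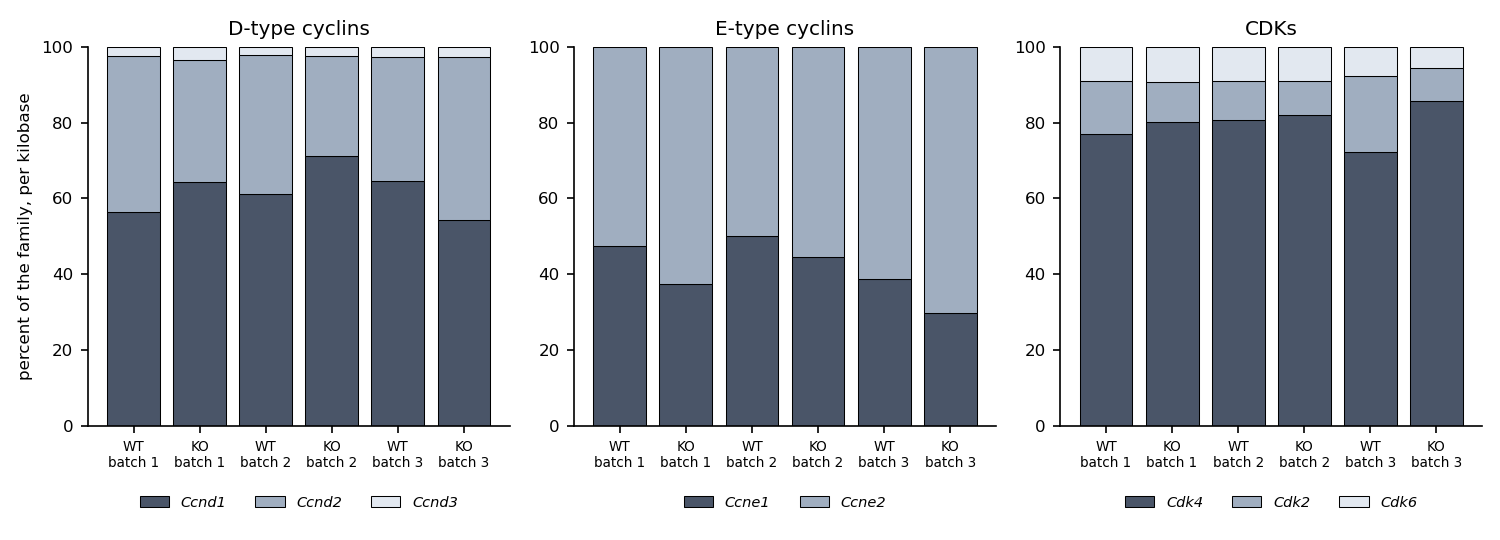
Percent of each member in its family (vertical axis, 0 to 100%), per kilobase of counted exon, for D-type cyclins, E-type cyclins and CDKs in each culture, with pairs of a batch side by side. In every batch *Ccne1* takes a smaller share of E-type cyclins, and *Cdk2* of the CDKs, in the iASPP-KO culture than in its iASPP-WT partner.

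Among 25 other genes of the G1/S machinery, 1 was higher (4% of the 25, beside 2.17% of all genes) and 3 were lower (12%, beside 1.95%) in iASPP-KO cells. The one that rose was *Cdkn1a*, encoding the inhibitor p21 of cyclin E and Cdk2 complexes and a target of p53 (128 ± 23.2 CPM in iASPP-KO and 82.9 ± 18.9 CPM in iASPP-WT cells, SD, n = 3 each). Every iASPP-KO culture lay above every iASPP-WT culture, as for 5.26% of all genes, and its log2 fold change was 0.64 (SE 0.11, edgeR adjusted p = 0.0138). Those that fell were *Ccna2*, the S-phase cyclin (log2 fold change -1.499, adjusted p = 0.0012), *Rbl1*, the retinoblastoma relative p107 (-0.67, adjusted p = 0.0263), and *Tfdp2*, a dimerization partner of E2F (-0.81, adjusted p = 0.0458), all adjusted by edgeR's fit. The retinoblastoma gene *Rb1* had a log2 fold change of -0.08 (SE 0.20) and *E2f1* of -0.42 (SE 0.31), neither past the threshold. These counts moved with the batches. The number higher was 0 without batch 1, 0 without batch 2 and 2 without batch 3. The number lower was 1, 1 and 4 in the same order. The calls over all genes moved too: 169, 174 and 793 higher and 151, 117 and 662 lower without batches 1, 2 and 3. These fits tested 15437, 15236 and 15261 genes. In the fit over all batches 323 genes were called higher and 291 lower, of 14916.

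Of 25 genes of DNA replication and nucleotide supply that are textbook targets of E2F, downstream of cyclin E and Cdk2, 17 were lower and 0 higher in iASPP-KO cells, beside 1.95% and 2.17% of all genes, and their median log2 fold change was -0.70. The 8 with the smallest p-values were *Uhrf1* (-1.39), the replicative helicase genes *Mcm6* (-1.19), *Mcm5* (-1.08) and *Mcm3* (-1.15), *Rpa2* (-1.10), *Cdc45* (-1.202), *Pola1* (-1.05) and *Fen1* (-0.70), with edgeR adjusted p-values from 0.0011 to 0.0166. *Mcm6*, for which the groups did not overlap, had log2 differences of -1.21, -1.07 and -1.26 in the 3 batches. The number lower was 7 without batch 1, 8 without batch 2 and 17 without batch 3. Over all genes 151, 117 and 662 were called lower in these fits, beside 291 in the fit over all batches.

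Upstream of the D-type cyclins, among 18 genes of the mitogen pathway, 2 were higher and 1 lower, beside 2.17% and 1.95% of all genes. The immediate early genes *Egr1* (1.01) and *Junb* (0.50), which encode transcription factors, were higher and the growth factor receptor gene *Egfr* (-0.48) was lower in iASPP-KO cells, all as log2 fold changes past an edgeR adjusted p of 0.05. Leaving out batch 1 or batch 2 removed all 3 of these calls, and without batch 3 there were 4 higher and 2 lower. Without batches 1, 2 and 3 the fits called 169, 174 and 793 of all genes higher and 151, 117 and 662 lower. Among 17 regulators of the INK4 and ARF locus and its p53 branch, *Mdm2*, itself a p53 target, was the 1 gene higher (0.79, SE 0.13, edgeR adjusted p = 0.0118) and 0 were lower, beside the same shares of all genes. Without batch 3 there were 2 higher and 1 lower. Of 20 genes associated with senescence, 18 were tested, 6 were higher and 0 lower, beside 2.17% and 1.95% of all genes: the chemokine genes *Cxcl1* (1.196), *Ccl20* (2.13) and *Cxcl5* (1.17), the cytokine gene *Il1a* (0.96), *Igfbp3* (0.74) and *Cdkn1a*. The number of these higher was 5 without batch 1, 4 without batch 2 and 7 without batch 3. The chemokines and *Il1a* are also inflammatory genes of keratinocytes, and Igfbp3 binds insulin-like growth factors.

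**Figure D5:**
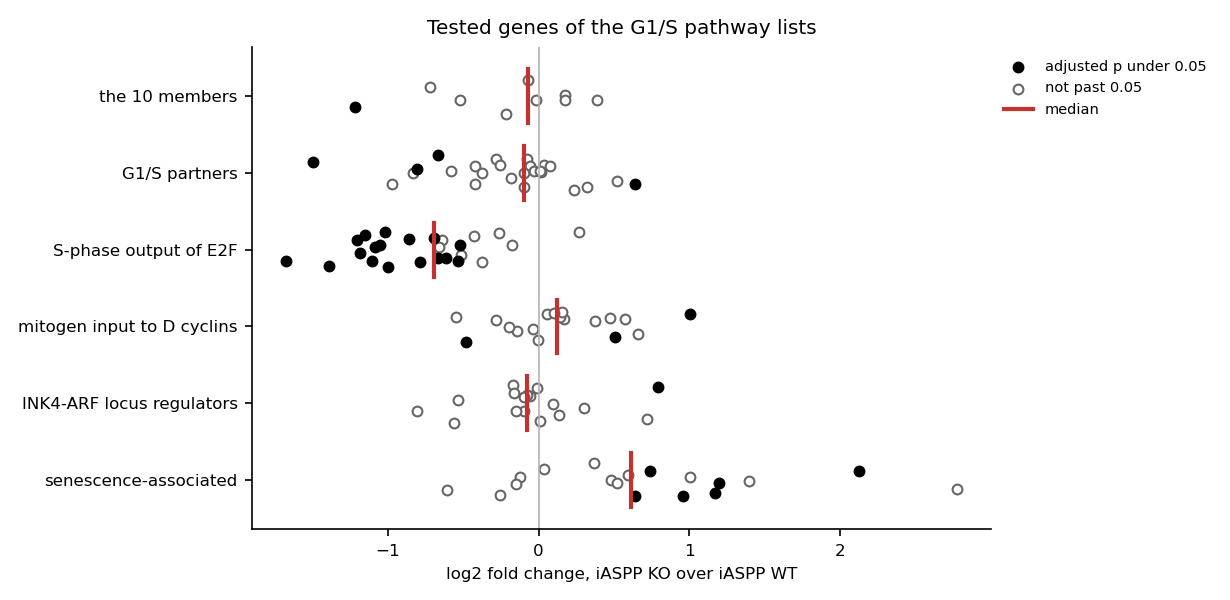
Log2 fold change, iASPP-KO over iASPP-WT, of the tested genes of 6 lists (rows): points filled where the adjusted p was under 0.05, red bars at the medians, vertical scatter only to separate points. The 9 tested members center near 0 (median -0.07), and the replication genes lie to the left (median -0.70).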

How the data were processed

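Total RNA from 3 iASPP-KO and 3 iASPP-WT keratinocyte cultures was depleted of ribosomal RNA and sequenced as single reads of 42 bases. The authors trimmed adapters (Cutadapt 2.10 per the submitters' processing notes), aligned the reads to GRCm38 (mm10) with STAR 2.7.3 and the GENCODE vM25 annotation, and deposited raw counts of reads per gene name on exons from featureCounts 2.0.0, counted by strand (setting 2) without options for multi-mapping or multi-overlapping reads. A second deposited table of the authors' own DESeq2 comparison, with fold changes and p-values, was not used. No per-sample column was left out.

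The tests used edgeR 4.0.16 (R 4.3.3) after filterByExpr, grouped by condition, and TMM scaling, with glmQLFit and glmQLFTest, batch and condition as terms (2 residual and 8.17 prior degrees of freedom), and Benjamini-Hochberg adjustment over all 14916 genes tested. Within-batch differences take log2 CPM at a prior count of 2. Levels per kilobase use the exon length in the count table. The Poisson intervals and the floor of 3 counts cover counting error only, as no molecular identifiers were used. The 95% intervals of the fit rest on its standard errors, which also carry the variation of the paired difference over the batches.

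Batches pair the cultures by the labels. Deviations of the KO and WT cultures of a batch from their group means correlated at 0.608, 0.694 and 0.770 over 9276 genes, and those of different batches at -0.660 to 0.301. Where nothing says that batches came from separate animals, p-values measure how the difference between paired cultures varied over these batches. Through the prior degrees of freedom that variation is estimated together with other genes. A chi-square comparison of libraries of one condition gave 35.4 to 147 per gene, so none was taken for a copy. The steps were tested on simulated data.

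The members and lists were chosen with earlier results of these data known. Named are all members, *Ppp1r13l*, up to 8 genes of each pathway list past the threshold by smallest p, *Cdkn1a*, *Rb1* and *E2f1*, genes within 200 kb of the INK4 genes, and the 2 nearest profiles of *Ccne1* and *Ccnd1*; *Pmel* and the cell type markers past the threshold were named after their values were seen. Alternatives were no batch term, DESeq2 1.42.0, DESeq2 size factors, upper-quartile scaling, no filter beyond 1 count, at least 10 counts in every library, robust dispersion, each batch left out, a prior count of 0.5, and, chosen after seeing the data, the longest GENCODE vM21 transcript as gene length.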

Additional observations from a re-analysis of the deposited data

How the results depend on the processing

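Under the 10 alternatives to the fit, *Ccnd3* and *Cdk6* kept their direction and stayed without a call. *Ccne1* was lower under all 10 (log2 fold change -1.51 to -1.01, adjusted p from 7.5e-05 to 0.973) and lost its call without the batch term and without batch 1. The batches pair the cultures, and without the replicate block 0 genes were called higher and 0 lower by edgeR's quasi-likelihood test (360 and 331 at an unadjusted p under 0.05; 1350 and 1103 by DESeq2 with the block), so 0 members and 0 genes of every list were called. *Ccne2* also passed the threshold with no filter beyond 1 count and with robust dispersion, and *Cdk2* with these and with at least 10 counts in every library. The members called lower were 3 with DESeq2, with no filter and with robust dispersion, and 2 with at least 10 counts in every library. Over the batches left out they were 0 to 2. All genes called lower were 407 of 12291 tested with DESeq2, 491 of 31932 with no filter and 359 of 14916 with robust dispersion. With at least 10 counts in every library they were 328 of 12401. The members called higher were 0 or 1 over the batches left out. Over the batches left out, log2 fold changes ran from -0.083 to 0.058 for *Ccnd1* and -0.073 to 0.33 for *Cdk4*, each changing sign without batch 3, and from -0.00034 to 0.79 for *Cdkn2b*, changing sign without batch 2. The cause was not tested.

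Over the batches left out, the G1/S partners called higher were 0 to 2 and lower 1 to 4, the replication genes called lower 7 to 17, the mitogen genes called higher 0 to 4 and lower 0 to 2, the INK4 regulators called higher 1 to 2 and lower 0 to 1, and all genes called higher 169 to 793 and lower 117 to 662. With no filter the mitogen genes were 4 higher and 2 lower (2 lower also with DESeq2), the INK4 regulators 2 higher, and all genes 624 higher and 491 lower. At the depth of these libraries *Cdkn2a* could not be measured in 5 of them. *Cdk2*, *Cdk4* and *Cdk6* share 0.590% to 1.89% of their read-length windows with other genes, taken on the longest transcript of each, which for *Cdk2* retains an intron. Exons of 7 members overlap genes on the opposite strand, which counting by strand separates.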
